A study of Mus musculus with 2 samples.

Results

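The Dmp1, Phex and Inmt mesenchymal cells of the mouse cochlea numbered 762 of 42625 kept cells in 2 single-cell libraries. A member was a kept barcode with 1 or more UMIs (unique molecular identifiers, each a counted RNA molecule) of at least 3 of 8 genes, Inmt, Fst, Phex, Dmp1, Tgfbi, Lox, Smpd3 and Itga8. It also had to show fewer than 3 of 7 osteoblast genes, Bglap, Bglap2, Dlx5, Runx2, Omd, Comp and Dio2. A kept barcode, called a cell here, had 300 genes or more and no more than 20% of its UMIs from mitochondrial genes. The rule gave 470 members of 19953 kept cells in the noise-only library and 292 of 22672 in the library of ears given an adeno-associated virus carrying Isl1 before noise (the AAV-Isl1 library).

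All ears came from wild-type CBA/CaJ mice aged 4 to 6 weeks, exposed for 2 h to noise of 105 dB between 1 and 20 kHz, with tissue taken 2 days later. The treated ears received AAV-Isl1 before the noise, and the contralateral ears of the same mice, without virus, served as controls, so no group was free of noise. Cells of 5 mice were pooled in each library, the viral promoter and serotype are not given in the sources used here, and a single library per group leaves no test between groups. Every interval below is a 95% interval that covers counting error only, and not the spread between mice.

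The matrices listed 21068 and 24209 barcodes with 38330528 and 40268563 UMIs, against about 1600 cells loaded per library, so what share of barcodes are whole cells was not tested. The libraries shared 145 barcodes, which included 2 noise-only and 1 AAV-Isl1 members, and no member barcode occurred as a member in both. Median depth was 1764.5 and 1411 UMIs in members, against 1094 and 1102 over all kept cells (noise-only library first here, as in every such pair of values below). The labels describe dissected sensory epithelium. In the members, 5 of 8 hair cell markers had a UMI in each library, with a summed level of 59.5 and 69.6 UMIs per 1000000 UMIs of the set (CPM, the unit of every level below).

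Mesenchyme around the otic capsule gives rise to the fibrocytes of the spiral ligament, to the cells lining the perilymph spaces and to the bone of the capsule itself. Pou3f4, a POU domain factor, and Coch, a secreted matrix protein, are known marks of this periotic mesenchyme and of its fibrocytes. Dmp1, a phosphoprotein of mineralized matrix, and Phex, a peptidase in phosphate regulation, are best known from osteocytes, the cells embedded in bone. Bone matrix is built by osteoblasts, and quiescent cells of that lineage line bone surfaces.

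The genes that chose the members are given first, as a description. Inmt (chr6:55170626-55175043, GRCm38), an N-methyltransferase, had a UMI in 56.0% and 58.9% of members, and Itga8 (chr2:12106632-12301922), an integrin alpha subunit, in 55.5% and 54.8%. Tgfbi (chr13:56609523-56639562), an adhesive matrix protein, was seen in 53.2% and 45.2%, and the collagen crosslinking enzyme Lox (chr18:52516067-52529867) in 50.4% and 53.1%. Phex (chrX:157162075-157415312) was seen in 39.1% and 33.6% of members, Dmp1 (chr5:104202613-104214102) in 36.6% and 29.5%, Fst (chr13:114452290-114458951), the activin antagonist follistatin, in 35.1% and 37.0%, and the sphingomyelinase Smpd3 (chr8:106252548-106337988) in 31.5% and 27.4%. No member showed all 8 genes. In the noise-only library 286 members had exactly 3, 122 had 4, 41 had 5, 18 had 6 and 3 had 7. The counts in the AAV-Isl1 library were 209, 59, 17, 6 and 1.

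Different members met the rule with different genes. The noise-only members showed 139 combinations, led by Tgfbi, Lox and Itga8 in 33 cells and by Phex, Dmp1 and Smpd3 in 24 cells, and the AAV-Isl1 members showed 102. Just outside the threshold lay 653 and 600 cells with exactly 2 of the 8 genes, at a median of 1478 and 1228.5 UMIs. Members with exactly 3 genes had a median of 1645.5 and 1294 UMIs, and those with 4 or more had 1926 and 1559, so the number of genes seen moved with depth. A further 16 cells had 3 or more of the 8 genes and were left out because they also showed 3 or more osteoblast genes.

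To see whether the members lie together by other genes, all kept cells were clustered with the 15 rule genes left out. Of 29 clusters, a single one held 519 of the 762 members (67.4% and 69.2% of the members of each library), and is called the leading cluster. Its 10 genes with the highest fold over other cells were Dpep1, Acan, Fst, Saa1, Inmt, Themis, Adh1, Glra3, Sult5a1 and Lox. Of these, Fst, Inmt and Lox are rule genes, which took no part in the clustering. The cluster was picked as the one with the most members, which these genes helped to choose, so their place here was partly set by the rule. Members made up 22.8% of the 1157 and 1118 cells of the leading cluster. The leading cluster held 37.4% and 43.2% of the cells with exactly 2 rule genes, 61.5% and 67.0% of those with exactly 3, and 76.6% and 74.7% of those with 4 or more. Among the nearest neighbours of a member, a median of 29.4% and 27.8% were members, against 0 around other kept cells.

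The other 243 members were spread over several clusters. In 3 of these, with 116 members, the mix of rule genes differed from that of the leading cluster. The osteoblast-like cluster, named from Ibsp, Bglap, Bglap2 and Dlx5 among its leading genes, held 46 members. Of these, 89.1% showed Phex, 87.0% Smpd3 and 78.3% Dmp1, while 13.0% showed Inmt. A cluster led by Gpr83, Ccl11 and Osr2 held another 46, of which 84.8% showed Tgfbi, 82.6% Lox and 73.9% Itga8. The tympanic border cell-like cluster, named from Rarres1, Notum and Emilin2, held 24, with Lox in 91.7%. Within the leading cluster Inmt was seen in 66.7% of members, Itga8 in 57.8%, Lox in 51.4%, Tgfbi in 50.5%, Fst in 38.7%, Phex in 36.8%, Dmp1 in 31.8% and Smpd3 in 23.9%. The 127 members in all remaining clusters showed Inmt less often, in 53.5%, and Smpd3 more often, in 37.0%. They showed Itga8 in 50.4%, Tgfbi in 48.0%, Lox in 46.5%, Fst in 37.0%, Dmp1 in 35.4% and Phex in 34.6%. These 127 members included small numbers in clusters led by neuronal genes (19 members), by erythroid genes (16) and by endothelial genes (14).

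Levels of the rule genes in whole clusters, members or not, are given as a description, because the leading cluster was picked through members that these genes chose. Inmt stood at 640 and 561 CPM in the leading cluster and at 63.8 and 42.3 in the osteoblast-like cluster. Fst was at 282 and 313 against 40.8 and 49.4, and both genes ranked first in the leading cluster among the 29. Dmp1, Phex and Smpd3 were higher in the osteoblast-like cluster. Dmp1 had 184 and 138 CPM in the leading cluster against 276 and 259, Phex 160 and 112 against 476 and 275, and Smpd3 105 and 92.1 against 598 and 531. Tgfbi, Lox and Itga8 were highest in the leading cluster of all 29, at 508 and 428, 344 and 294, and 265 and 206 CPM. Of the 4 clusters described, the Gpr83 and tympanic border cell-like clusters came next.

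**Figure D1:**
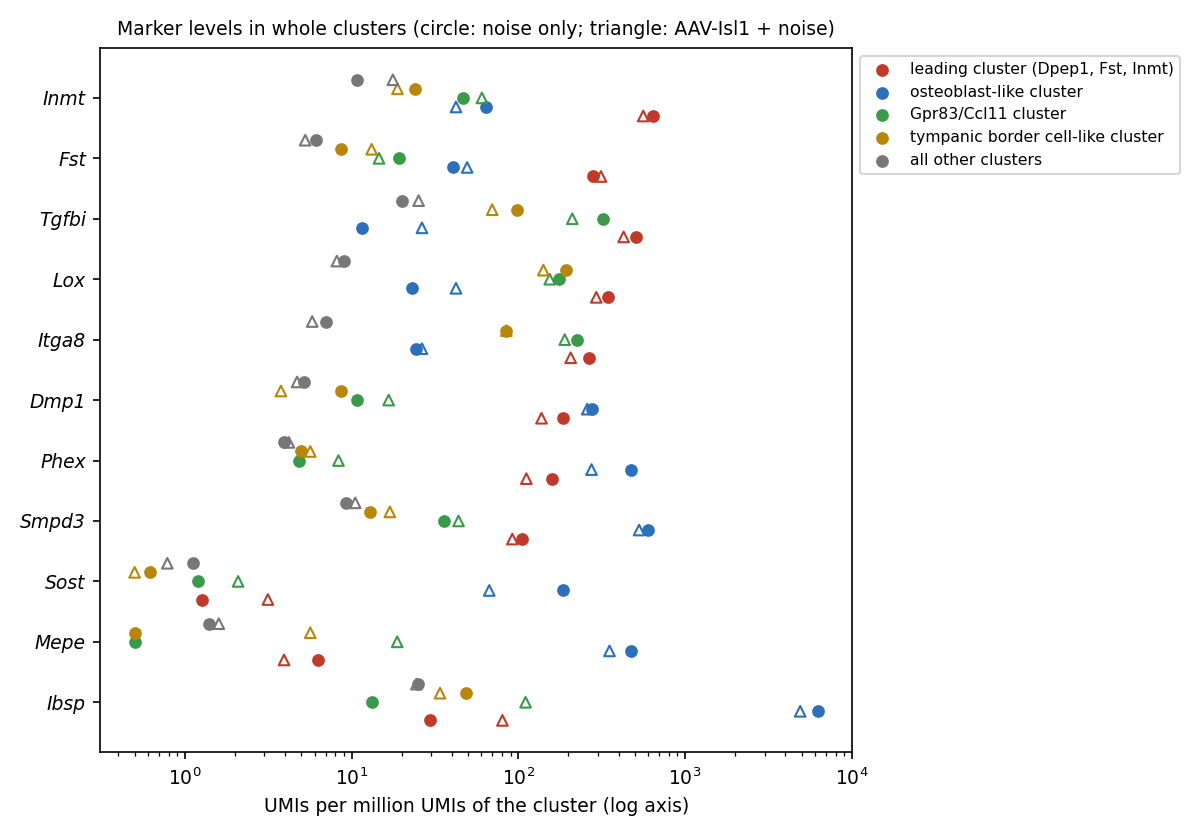
Level of the 8 rule genes and of 3 bone matrix or osteocyte genes in whole clusters, in UMIs per 1000000 UMIs of the cluster on a log axis, for the noise-only (circles) and AAV-Isl1 (triangles) libraries; values under 0.5 are drawn at 0.5. Inmt and Fst were highest in the leading cluster in both libraries, while Phex, Smpd3 and Dmp1 were higher in the osteoblast-like cluster, where Ibsp reached 6268 CPM.

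Genes that mark bone cells differed among themselves in the members that lay together. Among leading-cluster members, the 9 osteoblast markers summed to 118 and 184 CPM, but Bglap, Bglap2, Runx2 and Dlx5 are among them and also served to leave cells out, so this low level was partly set by the rule. The 9 osteocyte markers summed to 963 and 743 CPM, against 533 and 356 in cells with at least 3 osteoblast genes and 136 and 91.7 in other kept cells. Dmp1 and Phex are among these markers and helped to choose the members, so this higher sum was also partly set by the rule. Outside the rule, Irx5, an Iroquois homeodomain factor, stood at 207 and 127 CPM against 56.1 and 28.0 in other kept cells. Pdpn, podoplanin, a membrane protein of young osteocytes and of several other cell types, was at 48.3 and 63.6 against 23.1 and 22.4, and Ackr3, an atypical chemokine receptor, at 35.7 and 24.8 against 15.4 and 13.5. The other members of the list were scarce. Sost, the osteocyte inhibitor of Wnt signalling, stood at 1.79 and 7.07 CPM, and Mepe, a bone matrix phosphoprotein, at 7.15 and 14.1. Fgf23, the phosphate hormone made by osteocytes, had no UMI in either library, and nor did Dkk1, a secreted inhibitor of Wnt signalling. In the whole osteoblast-like cluster, Sost was at 185 and 67.0 CPM and Mepe at 477 and 353. Ibsp, bone sialoprotein, was at 29.7 and 80.3 CPM in all cells of the leading cluster, against 6268 and 4907 in the osteoblast-like cluster. Bglap, osteocalcin, which the rule used, was at 25.9 and 125 CPM against 7828 and 7821, and Runx2, the osteoblast transcription factor, at 26.5 and 24.4 against 262 and 282.

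Markers proposed for bone-lining cells or periosteum differed among themselves. Summed, they stood at 919 and 962 CPM in leading-cluster members. The sums were 387 and 355 in other kept cells, and 424 and 396 in cells with at least 3 osteoblast genes. Of that list of 8 genes, 5 had a UMI in noise-only leading-cluster members and 7 in AAV-Isl1 ones. Mmp13, a collagenase, was at 0 in both, and Thy1 and Aspn were at 0 in the noise-only members. Postn, a matrix protein of periosteum, had 6.32 and 8.66 CPM in the whole leading cluster, and was higher in the clusters outside the 4 plotted. Cxcl12, a chemokine of many stromal cells, was the abundant gene of the list, at 639 and 624 CPM. In leading-cluster members it stood at 813 CPM over both libraries, most of the sum. Of the 3 genes of the list with 20 or more UMIs in members of each library, none was 4-fold higher in members than in other cells, beside 2.35% of all genes. Their median fold, taking the lower of the 2 libraries, was 2.51.

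Of the periotic mesenchyme and ligament genes, Coch was abundant, while the other ligament genes ranged from below to above their level in other cells. Coch was at 10346 and 7892 CPM in leading-cluster members, and at 15275 and 10365 in the whole leading cluster, against 6337 and 4329 in the osteoblast-like cluster. Pou3f4 was at 435 and 350 CPM in the leading cluster, the highest of the 29 in the noise-only library and the second in the AAV-Isl1 library. Of the 6 periotic mesenchyme markers, 5 had 20 or more UMIs in members of each library, and Coch and Pou3f4 were at least 4-fold above other cells in both. Tbx15, also of that list, had no UMI in noise-only members. The 6 markers summed to 7939 and 6429 CPM in all members, of which Coch gave 7318 and 5925. In cells with at least 3 ligament genes (ligament-gene cells), which were chosen partly by Coch, the sums were 8858 and 7268. They were 11052 and 8557 in leading-cluster members, and 18686 and 11618 in the other cells of that cluster. Otor, a secreted protein of cochlear fibrocytes, was at 389.6 and 453 CPM in leading-cluster members. Of the 7 ligament fibrocyte markers with enough UMIs, Coch alone passed 4-fold in both libraries, and the median of the lower of the 2 folds was 0.925. The list summed to 8788 and 7937 CPM in all members, of which Coch gave 7318 and 5925. Otos, otospiralin, a fibrocyte protein of the spiral ligament, stood at 100.1 and 46.0 CPM in leading-cluster members, against 211 and 306 in the other cells of that cluster and 221 and 414 in all kept cells that were not members.

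Free RNA in droplets can add UMIs of abundant genes to any barcode, so shares of cells with a UMI were set beside those of neurons. After each cell was thinned to 1000 UMIs, Coch was seen in 81.6% of 425 and 85.0% of 233 members with that depth. The unthinned shares were 86.6% and 92.5%. In cells with at least 4 neuronal genes, whose median depth was 9958 and 6437 UMIs, the thinned share for Coch was 4.68% and 6.61%, and the unthinned share 12.6% and 16.3%. Igfbp4, described below, was seen in 71.3% and 64.4% of thinned members and in 0.871% and 1.13% of thinned neuronal cells.

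The label for these cells names a mesenchymal type that could line bone or belong to the periotic mesenchyme. By the values above, the osteocyte genes Sost, Mepe, Fgf23 and Dkk1 were low or at 0 in leading-cluster members, while Irx5, Pdpn and Ackr3 were above other kept cells. The osteocyte sum was above other kept cells too, partly by the rule, and so was the sum of the bone-lining markers. Of the 5 measured periotic mesenchyme markers, Coch and Pou3f4 were high and the others did not reach 4-fold in members. Summed, the periotic mesenchyme markers were higher in ligament-gene cells than in all members, and lower there than in leading-cluster members. Coch gave most of this sum in members, so it is mainly the level of a single gene. The low osteoblast genes were in part those that the rule used. Dmp1 and Phex were present in the leading cluster at the levels above, while in the clusters outside the 4 plotted Dmp1 had 5.18 and 4.71 CPM and Phex 3.93 and 4.21. The cells are therefore called members or leading-cluster members and given no cell type name.

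Levels of genes outside the rule in members over other kept cells describe the cells further; because the members were picked from the same counts, these folds are given without a test. Of 4208 genes with at least 20 UMIs in members of each library, 99 (2.35%) were at least 4-fold higher in both libraries, and the median over all genes of the lower of the 2 folds was 0.896. Dpep1, a membrane dipeptidase, led with 140 and 120 CPM against 3.13 and 3.16 in other cells, 44.8-fold and 38.1-fold. Adh1, an alcohol dehydrogenase that acts on retinol, was 25.2-fold and 34.7-fold higher, and Themis, best known from thymocytes, 32.7-fold and 25.3-fold. Pla1a, a phospholipase, stood 19.4-fold and 22.8-fold higher, Moxd1, a copper-dependent monooxygenase-like protein, 15.1-fold and 24.4-fold, and Pdzrn4 15.9-fold and 19.8-fold. The most abundant of the 20 leading genes was Igfbp4, a binding protein that limits IGF signalling, at 1574 and 1365 CPM against 135 and 120 in other cells. Prss35, Gm973, Sult5a1, Cebpa, Rasl11a, Ccl11, Ccn4, Gm49767, Scara5, Ccn2 and Fhl2 had folds between 7.66 and 16.2, and Cfb and Serping1, described below, complete the 20.

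Matrix genes were among the genes at least 4-fold higher. In the list of matricellular proteins, which sit in the matrix and modulate signalling, 4 of 7 genes with enough UMIs passed 4-fold, Ccn4, Ccn2, Spon2 and Ccn1, with a list median of 5.69. Ccn2, connective tissue growth factor, had 295 and 308 CPM against 38.2 and 37.5 in other cells. Of the collagen chains, 5 of 10 passed, and they included Col2a1, Col9a1 and Col11a1, the chains of cartilage fibrils, at 63.3 and 62.1, 48.0 and 62.1, and 95.9 and 82.8 CPM. Small leucine-rich proteoglycans, which bind collagen fibrils, passed in 3 of 6. Ogn stood at 1199 and 989 CPM, Bgn at 368 and 350 and Chad at 40.3 and 48.9. Of the 16 mineral matrix genes, 11 were outside the rule and 6 of these were measured. None of the 6 passed 4-fold, but with 2.35% of all genes passing, 6 genes are too few to show a lack. The rule also left out cells with 3 or more osteoblast genes, so the level of mineral genes was partly set by it.

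Complement genes and transcription factors filled other places. Of 10 measured complement genes 4 passed, Cfb, Serping1, C1ra and C1s1. Serping1, the C1 inhibitor, had 769 and 790 CPM against 61.8 and 67.9 in other cells, and Cfb, factor B of the alternative pathway, was 21.4-fold and 16.8-fold higher. Chemokines passed in 3 of 12, Ccl11, Ccl19 and Cxcl10. Of the 334 and 114 UMIs of Ccl11, eotaxin, 175 and 66 lay in leading-cluster members. Among 11 measured bone and mesenchymal transcription factors, Pou3f4 alone passed, and Sox9, a factor of chondrocytes and many epithelia, stood at 436 and 389 CPM in the whole leading cluster. Acan, aggrecan, a large proteoglycan of cartilage, was at 102 and 70.9 CPM there and at 15.3 and 12.3 in the osteoblast-like cluster, whereas the cartilage matrilins Matn1 and Matn3 had no UMI in the leading cluster.

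**Figure D2:**
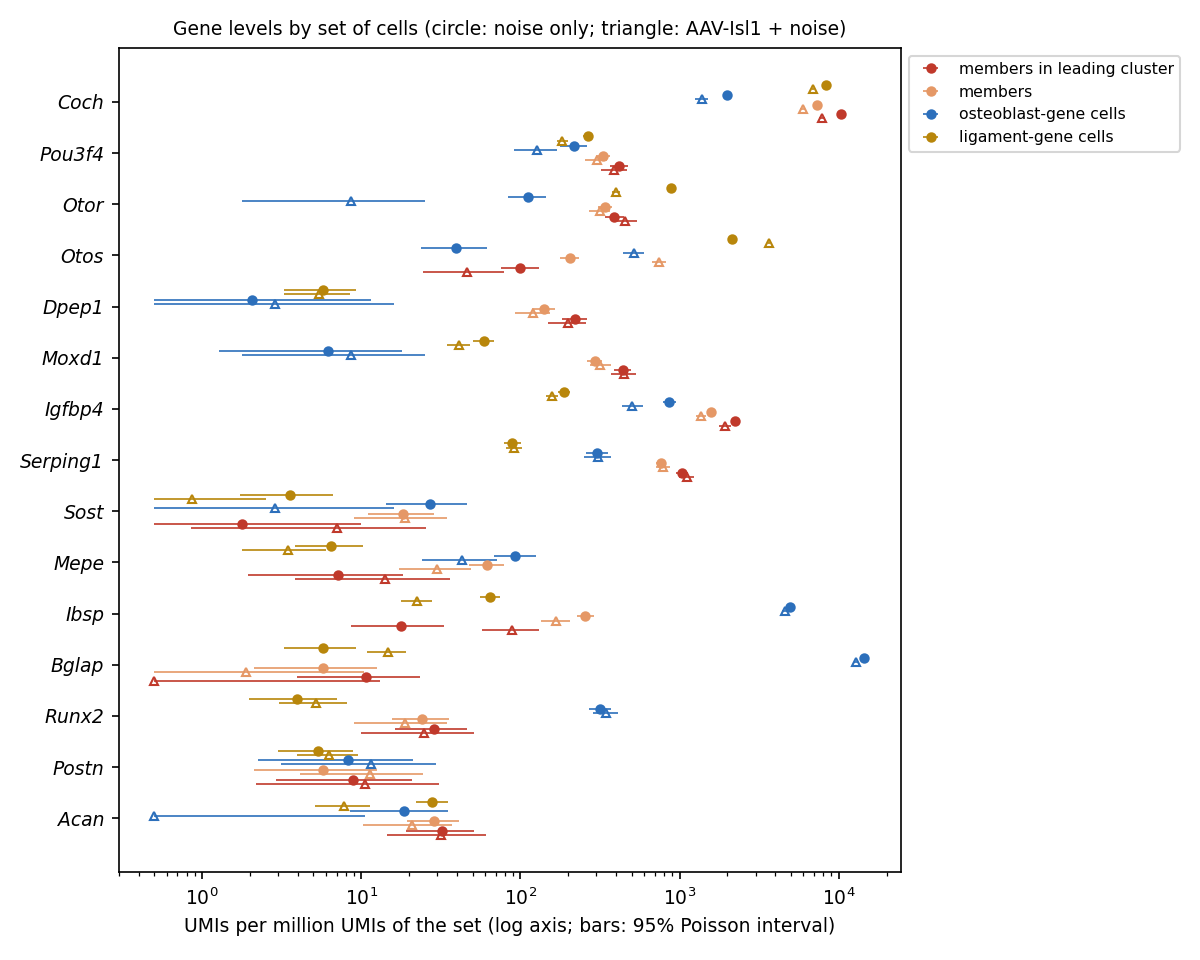
Levels of 15 genes in UMIs per 1000000 UMIs of each set (log axis, bars are 95% Poisson intervals) in leading-cluster members, all members, cells with at least 3 osteoblast genes and cells with at least 3 ligament genes, for the noise-only (circles) and AAV-Isl1 (triangles) libraries; values under 0.5 are drawn at 0.5. Ligament genes are Coch, Otos, Otor, Car3, Gjb2 and Slc4a11. Dpep1, Moxd1 and Igfbp4 were highest in leading-cluster members and Ibsp in osteoblast-gene cells, while the levels of Bglap and Runx2 in osteoblast-gene cells and of Coch and Otos in ligament-gene cells were partly set by the choice of those cells.

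The genes with the highest folds between members of different clusters describe what those clusters hold. Compared with the members in the osteoblast-like cluster, those of the leading cluster had more Apoe, apolipoprotein E, at 15018 against 878 CPM over both libraries, and more Plpp3, a lipid phosphatase, at 3850 against 286. They had less Mepe, at 9.50 against 1202 CPM, and less Ibsp, at 41.6 against 5189. Against the members of the Gpr83 cluster, leading-cluster members had more Car3, a carbonic anhydrase, at 734 against 30.4 CPM, and more Cxcl12, at 813 against 91.2. They had less Osr2, an odd-skipped transcription factor, at 9.50 against 281, and less Aldh1a2, a retinoic acid synthesizing enzyme, at 10.7 against 304. Members in the tympanic border cell-like cluster carried Emilin2 at 4400 CPM and Ptn, pleiotrophin, at 14862, against 309 and 1677 in leading-cluster members.

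The share of cells that were members was lower in the AAV-Isl1 library. Members made up 2.36% of kept cells (2.15% to 2.58%, Clopper-Pearson) of noise-only ears and 1.29% (1.15% to 1.44%) of AAV-Isl1 ears, a ratio of 0.547 (0.471 to 0.634). With the rule applied after thinning to 1000 UMIs, 1.90% of 10869 and 0.941% of 12646 cells were members, a ratio of 0.496 (0.393 to 0.625). Within the leading cluster, members made up 27.4% of noise-only and 18.1% of AAV-Isl1 cells, and 22.8% and 16.6% after thinning. Fewer cells of this kind and less RNA of the rule genes per cell cannot be told apart from the count of members alone. The leading cluster itself, found without the rule genes, made up 5.80% of noise-only and 4.93% of AAV-Isl1 kept cells, a ratio of 0.850 (0.783 to 0.924). Among cells with 1000 UMIs or more it made up 6.90% and 4.38%, a ratio of 0.635 (0.568 to 0.710). In all cells of the leading cluster, Phex had 0.700 times (0.566 to 0.863) and Dmp1 0.747 times (0.616 to 0.904) its noise-only level in the AAV-Isl1 library, and Fst 1.11 times (0.967 to 1.27). The remaining rule genes were also at lower levels there, as given above. None of the 8 differed by 1.5-fold with an interval that excluded 1. Their median log2 ratio was -0.15 in members and -0.20 in cells that were not members. How much of these differences between the libraries comes from dissection, pooling or sampling of the tissue was not tested.

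**Figure D3:**
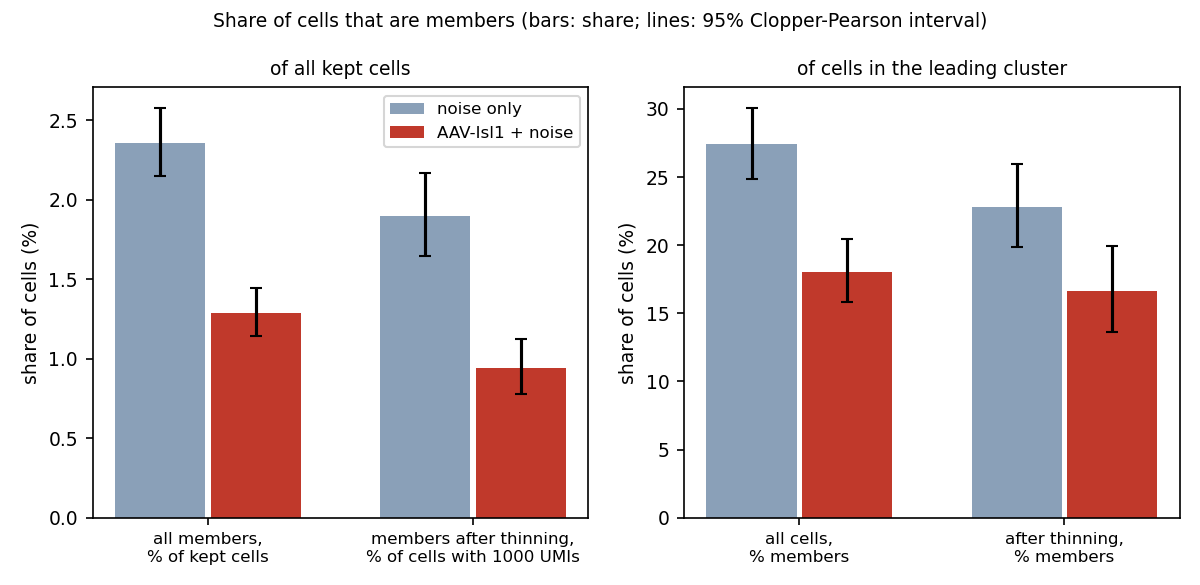
Share of cells that were members in the noise-only and AAV-Isl1 libraries, as a percent of all kept cells (left) and of the cells in the leading cluster (right), each on all UMIs and after thinning to 1000 UMIs; lines are 95% Clopper-Pearson intervals. The share was lower in the AAV-Isl1 library in each pair, at 2.36% against 1.29% of all kept cells.

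Isl1, the LIM homeodomain factor carried by the virus, was scarce in members. In the noise-only library 10 of 470 members had a UMI, 34 UMIs in all, at 32.6 CPM (22.6 to 45.6). In the AAV-Isl1 library 19 of 292 had one, 52 UMIs in all, at 97.8 CPM (73.0 to 128). Leading-cluster members had 2 UMIs in 2 of 317 cells and 18 UMIs in 5 of 202 cells, of which 11 UMIs lay in a single cell. All cells of the leading cluster had 6 and 37 UMIs, in 6 of 1157 and 18 of 1118 cells. The labels do not say whether vector RNA maps to the annotated gene.

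Genes were then compared between the libraries within the members, as the ratio of the AAV-Isl1 level to the noise-only level. A gene was called when it had at least 50 UMIs over both libraries, differed at least 1.5-fold and had an interval that excluded 1. Of 4816 genes, 236 were called higher (4.90%) and 180 lower (3.74%). Because the members outside the leading cluster include cells with neuronal, erythroid and macrophage genes, most ratios are also given for leading-cluster members, where 83 of 2554 genes were called higher (3.25%) and 75 lower (2.94%). In all cells of the leading cluster, 270 of 6833 were called higher (3.95%) and 120 lower (1.76%). The clustering that defines these sets used the genes compared here, other than the rule genes.

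MHC class I genes, which present peptides to cytotoxic T cells, were higher in AAV-Isl1 members, without a test. Of 16 measured genes of the list for class I and its peptide processing, 14 lay above 1, with a median log2 ratio of 0.81 beside -0.03 over 8346 measured genes, and 6 of 12 with enough UMIs were called. In cells that were not members the list median was 0.25. H2-K1, a class I heavy chain (chr17:33996017-34000347), had 297 UMIs in noise-only and 451 in AAV-Isl1 members, 285 against 848 CPM, a ratio of 2.98 (2.57 to 3.46). The ratio was 3.10 in leading-cluster members, 2.50 in all cells of that cluster and 1.71 in cells that were not members. H2-D1, another heavy chain, had a ratio of 2.07 (1.85 to 2.32), and 2.23 in leading-cluster members. B2m, the light chain common to class I molecules, went from 568 to 1081 CPM, 1.90 times (1.69 to 2.14), and 2.10 times in leading-cluster members. Psmb8, Psmb9 and Psmb10, the catalytic subunits of the immunoproteasome that cuts peptides for class I, had ratios of 1.94, 2.20 and 1.74, and of 2.00, 1.92 and 1.88 in leading-cluster members. In leading-cluster members all 14 measured genes of the list lay above 1, the median was 0.93, and 7 of 11 were called, H2-Q4 being added. The class I heavy chains are close relatives of each other, so reads may have been split between them by the authors' counting.

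After thinning, H2-K1 was again seen in more AAV-Isl1 than noise-only members. It was seen in 24.2% of noise-only and 48.5% of AAV-Isl1 members at 1000 UMIs (37.7% and 62.7% unthinned), and in 2.72% and 4.35% of neuronal cells (14.2% and 17.8% unthinned). Macrophage-gene cells, which express class I, showed it in 36.8% and 54.8%.

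Of the interferon response genes, some were called higher in AAV-Isl1 members and most were not called. The list of 36 had 33 measured genes, a median log2 ratio of 0.12 and 6 called higher of 29, among them Gbp2, Gbp7, Iigp1, Igtp and Samhd1. Over all genes, 4.90% were called higher. In leading-cluster members the median was 0.18, with 22 of 30 measured genes above 1. There 3 of 25 were called higher, beside 3.25% of all genes. In cells that were not members the median was 0.004. Iigp1, an interferon-inducible GTPase that acts on pathogen vacuoles, went from 162 to 414 CPM, 2.55 times (2.08 to 3.14), and 3.25 times in leading-cluster members. Gbp2 and Igtp, GTPases of related families, had ratios of 2.30 (1.43 to 3.71) and 2.40 (1.46 to 3.99), and of 3.38 and 2.97 in leading-cluster members. Gbp4, a guanylate-binding protein outside the list and among the 12 highest ratios, went from 25 to 60 UMIs, 4.70 times (2.91 to 7.83), and had ratios of 5.81 in leading-cluster members and 4.45 in all cells of the cluster.

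Several abundant genes of the list were not called. Isg15, a ubiquitin-like modifier, stood at 410 and 406 CPM, a ratio of 0.992 (0.838 to 1.17), close to the AAV-Isl1 level of the called gene Iigp1. Ifit3 had a ratio of 1.08 (0.907 to 1.29), Bst2, tetherin, 0.933 (0.829 to 1.05), and Ifitm3, a membrane protein that restricts virus entry and the most abundant of these, 0.904 (0.855 to 0.955). In leading-cluster members these 4 genes had 0.963, 1.01, 1.02 and 0.926. Ifit1 had 1.40 (1.20 to 1.63) and Irf1, an interferon-regulated transcription factor, 1.29 (1.14 to 1.47), both above 1 but short of 1.5-fold, and 1.40 and 1.32 in leading-cluster members. The same order held in all cells of the leading cluster, where Isg15 had 0.950, Ifitm3 0.868, Ifit1 1.41 and Irf1 1.30.

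In the list of 22 chemokines and cytokines, 13 were measured with a median log2 ratio of 0.69, 6 were called higher, and Cx3cl1, a membrane-bound chemokine, was called lower at 0.613 (0.374 to 0.970). In leading-cluster members the median was 0.29 and 3 of 8 were called, Ccl7, Ccl19 and Cxcl10, all higher. With the rule applied after thinning, the median was 0.15, with 6 genes above and 6 below 1. In cells that were not members the median was 0.04. Cxcl10, a ligand of Cxcr3 on T cells, went from 182 to 263 UMIs, 175 to 495 CPM, 2.83 times (2.34 to 3.44). It had 3.05 in leading-cluster members, 3.07 in all cells of the cluster and 2.04 in cells that were not members. At 1000 UMIs, 9.65% and 22.3% of members showed Cxcl10 (13.6% and 28.1% unthinned), against 0.326% and 0.476% of neuronal cells. Ccl19, a ligand of Ccr7, had a ratio of 1.64 (1.21 to 2.20), and 2.21 in leading-cluster members. Ccl7, a monocyte attractant, had 1.64 (1.37 to 1.98), and 1.51 in leading-cluster members. Ccl2, another monocyte attractant, had 2.29 in all members but 1.39 (1.03 to 1.87) in those of the leading cluster, where it was not called, and 0.700 in members with 4 or more rule genes. Cxcl12 had 0.994, and Ccl11 0.669 (0.536 to 0.830), below 1 but short of 1.5-fold. In leading-cluster members they had 1.05 and 0.746.

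**Figure D4:**
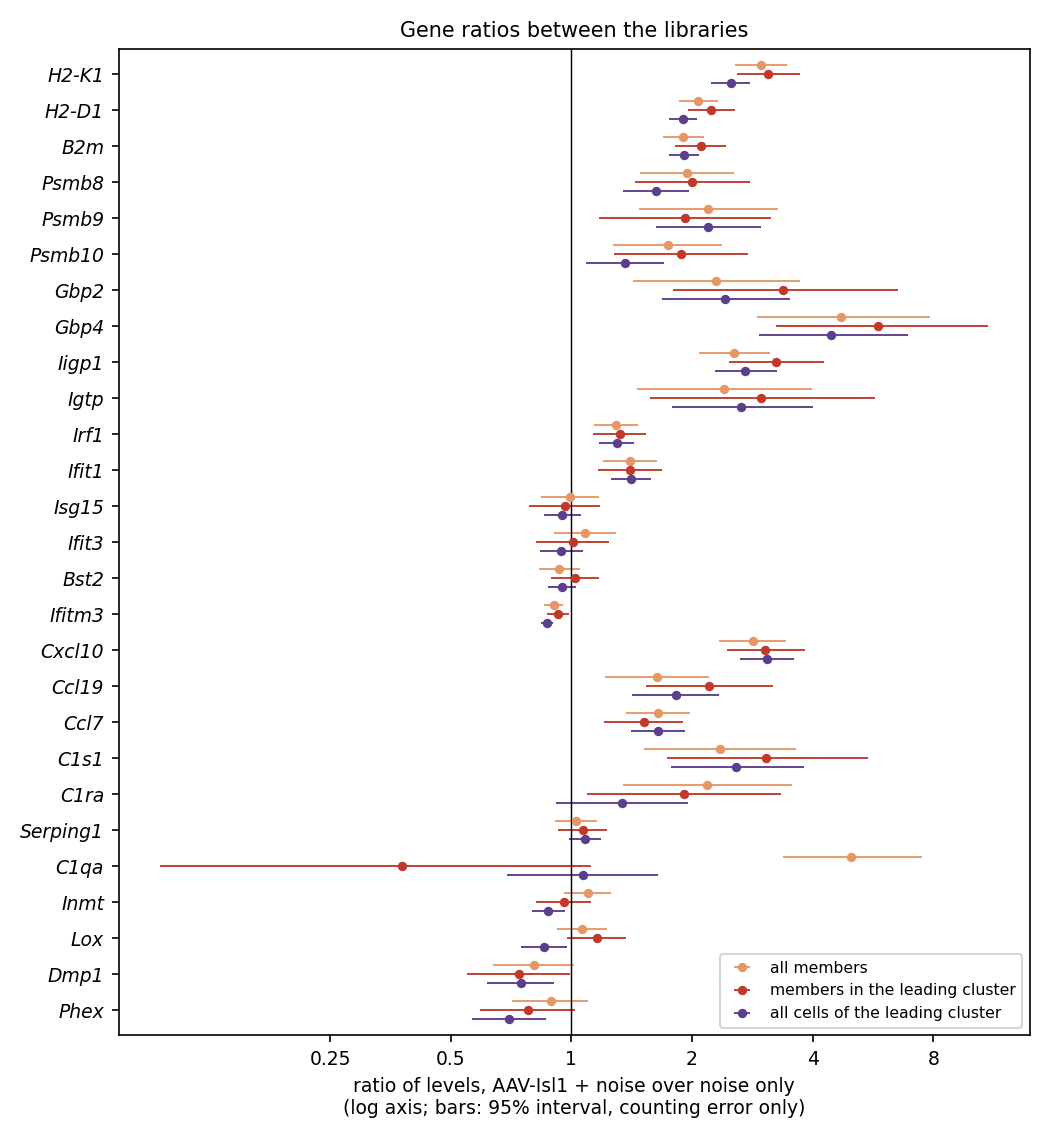
Ratio of the level in the AAV-Isl1 library to that in the noise-only library for immune and rule genes (log axis, bars are 95% intervals for counting error), in all members, leading-cluster members and all cells of the leading cluster. H2-K1, Gbp4, Iigp1 and Cxcl10 lay above 2 in all 3 sets, Isg15, Ifit3 and Bst2 lay near 1, and C1qa was at 4.98 in all members but 0.377 in leading-cluster members.

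Complement genes differed in which members carried them. The list median was 0.92 (log2) over 12 measured genes in all members, and 0.43 over 11 in leading-cluster members, and it was 0.26 over 9 with the rule applied after thinning. In cells that were not members it was 0.13. C1qa, C1qb and C1qc, the chains of C1q that macrophages make, had ratios of 4.98, 6.63 and 4.57 in all members, from 37, 21 and 27 to 94, 71 and 63 UMIs. In leading-cluster members, they had 0.377, 1.65 and 0.659, with no more than 21 UMIs in a library, and all 3 intervals included 1. The proteases of the C1 complex held in both sets: C1s1 had 2.34 (1.52 to 3.64) and 3.06 (1.74 to 5.49), and C1ra 2.18 (1.35 to 3.55) and 1.91 (1.10 to 3.33). In all cells of the cluster C1s1 had 2.58 and C1ra 1.33 (0.914 to 1.95). Serping1 had 1.03 (0.911 to 1.16), and 1.07 in leading-cluster members.

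Some lists of markers of other cell types were higher in AAV-Isl1 members, as these genes were, and others were lower. In all members the median log2 ratio was -0.50 for endothelial, -0.21 for pericyte or smooth muscle and -0.38 for neutrophil markers. Summed over the 7 macrophage markers, the level in all members was 104 and 470 CPM, and in leading-cluster members 84.0 and 103, with all 7 markers detected in each library in both sets. The 6 T or NK cell markers were at 2.88 and 67.7 CPM in all members, and in leading-cluster members all 6 were at 0 in the noise-only library and 5 had a UMI in the AAV-Isl1 library, 88.4 CPM in sum. The erythroid list stood at 4992 and 22370 CPM in all members and at 118 and 350 in leading-cluster members, and the neuron list at 1324 and 2312 against 109 and 233. Without members showing 2 or more genes of another class, 5 of 6 neuron markers with enough UMIs were called lower, and all 4 such erythroid markers higher. Neuronal and erythroid cells were not among the classes screened for this. The part of these cells, or of RNA from them, in the ratios above was not tested.

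The genes with the highest ratios in all members were mostly of such other types. H2-Ab1, H2-Eb1, H2-Aa and Cd74, the class II chains and their invariant chain, had ratios of 61.7, 50.0, 31.9 and 27.1, from 2, 2, 4 and 13 UMIs to 63, 51, 65 and 180. Cd74 had 5 and 34 UMIs in leading-cluster members. Pcp4, a calmodulin-binding peptide abundant in some inner ear neurons, had 19.1, with 103 of its 107 AAV-Isl1 UMIs in a single cell. The others of the 12 highest were Ccl8, C1qb, Slc4a11, Cxcl2, C1qa, Gbp4 and Ctss, and of these Gbp4 alone, with 16 and 47 UMIs, had the 50 that a call in leading-cluster members needs.

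Of the 12 lowest ratios, those of Camp and Ngp came from a single cell. Camp and Ngp, granule proteins of neutrophil precursors, had 0.253 and 0.261, and a single noise-only cell held 154 of the 155 Camp UMIs and all 105 of Ngp. Aard, Cnmd, Cldn5, Tnfaip6, Gper1, Dnase1, Acta2, Tagln, Abhd2 and Nradd had ratios between 0.261 and 0.348. Cldn5 is a junction protein of endothelium, and Acta2 and Tagln are contractile proteins of smooth muscle. None of the 12 had 50 UMIs in leading-cluster members.

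Matrix and signalling lists lay near or below the median of all genes in all members. The median log2 ratio was -0.13 for collagen chains, -0.28 for small leucine-rich proteoglycans, -0.24 for matricellular proteins and -0.31 for basement membrane and elastic fibre genes. In leading-cluster members these medians were 0.08, -0.13, -0.02 and -0.21, so that the collagen median changed sign. In cells that were not members the same medians were -0.24, -0.14, -0.17 and -0.17. Of 11 collagen chains with enough UMIs in all members none was called, while in leading-cluster members Col4a1, a basement membrane chain, was called higher of 7, and in all cells of the cluster Col14a1 and Col15a1 were called higher of 18. Mgp, matrix Gla protein, an inhibitor of calcification, was called higher at 1.55 (1.38 to 1.75) and had 1.87 in leading-cluster members. Ibsp and Mepe were called lower in all members and are the genes of the osteoblast-like cluster, which held 37 noise-only and 9 AAV-Isl1 members. The Wnt list had -0.37 in all members and -0.08 in leading-cluster members. Coch had 0.810 (0.776 to 0.844), 0.763 in leading-cluster members and 0.679 (0.664 to 0.693) in all cells of the cluster, and its ratio in cells that were not members was 0.832. Heat shock genes had 0.12, immediate early genes -0.07 and glucocorticoid response genes -0.17, and of these lists only Ier3 was called, as lower.

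The promoters of called class I, interferon, complement and chemokine genes were searched in RefSeq (GRCm38.p6) for the interferon-stimulated response element (the letters GAAA, any 2 bases and GAAA, on both strands), within 300 bases per promoter, 250 before to 50 after the start. Of 16 genes, the list members called higher in leading-cluster members together with Gbp4, 12 were in the table with 14 promoters, and 3 of these promoters held a match, beside 1131 of 32851 promoters in the whole table (3.44%). The 3 genes were B2m, Ccl19 and Cxcl10, and the 70 bases around each match are shown so that the spacing of the repeated GAAA can be read, 5′ to 3′ on the gene's strand with the match in capitals.

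B2m (chr2:122147518-122147587, plus strand): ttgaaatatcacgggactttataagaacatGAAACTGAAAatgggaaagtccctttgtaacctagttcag
Ccl19 (chr4:42756534-42756603, minus strand): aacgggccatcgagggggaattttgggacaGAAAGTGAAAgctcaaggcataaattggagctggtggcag
Cxcl10 (chr5:92349063-92349132, minus strand): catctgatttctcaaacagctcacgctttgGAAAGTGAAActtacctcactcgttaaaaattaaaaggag

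The match began 139 bases before the start in B2m, 208 in Ccl19 and 213 in Cxcl10. It read the same in Ccl19 and Cxcl10. These genes had ratios in members of 1.90, 1.64 and 2.83, while H2-K1 and H2-D1, with ratios of 2.98 and 2.07, held no match of these letters in the same window. The same windows were also searched for the gamma-activated sequence (the letters TTC, any 3 bases and GAA, which read the same on both strands). It matched in 3 of the 14 promoters, those of Samhd1, Psmb8 and C1ra, none of which held the other motif, beside 2726 of 32851 in the whole table (8.30%). A match is a description of the letters and not of a factor's binding.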

How the data were processed

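UMI counts per gene and barcode were deposited by the authors as whole numbers for 1 pooled library per group; each library came from the 10x Genomics 3' kit v3.1, per the labels' protocols. The submitters' processing notes list Cell Ranger 5.0, STAR and Seurat 3.2.2 with the build mm10 (GRCm38); per the file headers, the Cell Ranger version was 5.0.1. Replicate mice were pooled before capture. The member rule, gene lists and marker lists were chosen with earlier results of these data known, so none is independent evidence.

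Counts were used as deposited and summed over the cells of a set, and a level is the sum per 1000000 UMIs of that set with an exact Poisson interval. A ratio between libraries has an exact conditional binomial interval. A list median was taken over genes with at least 20 UMIs. Clustering used scanpy 1.11.5 on log-transformed counts scaled to 10000 per cell, 3132 variable genes without the 15 rule genes, 50 components, 15 neighbours and Leiden resolution 1.0, without batch correction. Scrublet (expected rate 0.06) called 0 doublets at its automatic threshold in each library, so no doublet was removed, although 317 members (187 noise-only and 130 AAV-Isl1) showed 2 or more genes of another cell class, at a median of 2257 and 1690 UMIs against 1550 and 1198.5 in the other members. The 8 classes screened were endothelial, pericyte or smooth muscle, Schwann or satellite glia, macrophage, neutrophil, T or NK, B or plasma, and hair cells. Neuronal, erythroid, strial and other epithelial cells were not among them. The ratio calculation was tested on simulated counts.

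Named genes were the 15 rule genes, the 20 genes with the highest fold over other cells, Isl1, the 12 highest and 12 lowest called ratios (without mitochondrial, ribosomal, hemoglobin, immunoglobulin and unnamed genes), the most abundant genes of each list and, between clusters, the 6 with the highest fold. List genes outside this rule, such as Igtp, Gbp2, C1ra and Ccl19, were named after their values were seen. Coordinates are from GENCODE vM21 (GRCm38) and promoters from RefSeq (GRCm38.p6). Alternatives changed the cell filter, the rule, depth, doublets, scaling and the minimum count. Some list genes are not reported here.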

Additional observations from a re-analysis of the deposited data

How the results depend on the processing

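The share of members was lower in the AAV-Isl1 library under all 8 alternatives, and its ratio of 0.547 ranged from 0.397 with at least 4 of the 8 rule genes to 0.614 with no osteoblast gene detected. The share of members in the leading cluster, 68.1%, became 73.6% at resolution 0.5, 46.3% at resolution 2.0, 76.0% with at least 4 rule genes, 80.9% with the rule after thinning, 76.9% without members showing 2 or more genes of another class, and 73.0% without the 6% of cells with the highest Scrublet scores. The automatic Scrublet threshold called no doublet, so that alternative left every member in. The alternatives with the highest Scrublet scores, leading-cluster members and all cells of the leading cluster were chosen after seeing the data.

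Counts of genes called higher and lower, 236 and 180, became 71 and 86 with at least 4 rule genes, 48 and 49 after thinning, 57 and 109 without members showing genes of another class, and 83 and 75 in leading-cluster members. They were 109 and 145 without the highest Scrublet scores, and 373 and 248 with a minimum of 20 UMIs. Fewer genes were thus called higher than lower with at least 4 rule genes, after thinning, without members showing genes of another class and without the highest Scrublet scores. These sets test fewer or more genes by construction.

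The MHC class I median ranged from 0.53 to 0.93 and the interferon median from 0.07 to 0.29. For H2-K1 the ratio ranged from 2.50 to 3.41, for Cxcl10 from 2.30 to 3.53 and for Gbp4 from 4.45 to 7.53. The chemokine median of 0.69 fell to 0.15 after thinning and 0.23 with at least 4 rule genes, and the complement median of 0.92 to 0.26 after thinning. The integrin median of 0.08 became -0.16 after thinning, the collagen median of -0.13 became 0.10 with at least 4 rule genes and 0.08 in leading-cluster members, and the matricellular median of -0.24 became -0.02 in leading-cluster members. Other medians that changed included those for mineral matrix genes (0.093 in leading-cluster members and 0.11 in all cells of the cluster), FGF and phosphate genes (-0.54 in leading-cluster members), the IGF axis (-0.16 with at least 4 rule genes, -0.14 in leading-cluster members and -0.11 in all cells of the cluster), p53 genes (-0.42 in leading-cluster members), heat shock genes (0.28 after thinning) and bone transcription factors (0.063 with at least 4 rule genes). Without members showing genes of another class, p53 genes had -0.44 and glucocorticoid genes 0.086. The cause was not tested.

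Direction reversed for genes on few UMIs. In leading-cluster members the ratio was 1.98 for Cnmd, 3.17 for Cldn5, 1.98 for Acta2, 1.26 for Tnfaip6, 1.73 for Tagln, 0.377 for C1qa, 0.659 for C1qc, 0.180 for Cxcl2 and 0.565 for Pcp4. All cells of the cluster gave 1.13 for Cnmd, 2.16 for Cldn5, 1.39 for Acta2, 21.2 for Camp, 1.29 for Aard, 1.03 for Tnfaip6 and 1.03 for Abhd2. With at least 4 rule genes it was 1.08 for Cnmd, 0.538 for Pcp4, 0.489 for Ctss, 3.23 for Dnase1 and 0.700 for Ccl2. After thinning it was 1.35 for Cnmd, 2.70 for Cldn5 and 1.45 for Tnfaip6. Without members showing genes of another class it was 1.54 for Cnmd, 2.32 for Cldn5, 0.463 for C1qa and 2.32 for Camp. Without the highest Scrublet scores it was 2.90 for Cnmd, with no osteoblast gene 31.2 for Camp, and without the 5 cells richest in the gene 0.661 for Ccl8 and 1.97 for Dnase1.

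No paired analysis was possible because each group is 1 pooled library. Depth limits single members: a median of 1633 UMIs leaves most genes unseen in most cells, so shares of cells with a UMI understate expression.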
